A study of Mus musculus with 2 samples.

Results

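*Mirg* and *AK050713* are non-coding RNAs of the *Dlk1-Dio3* imprinted domain on mouse chromosome 12, and the RNA that runs from the end of *Rian* through *Mirg* carries a large cluster of microRNA hairpins. These 2 genes, of 1718 annotated genes that lie inside the deposited parts of the genome, were taken by name and position in mm9: *Mirg* (ENSMUSG00000091158.1) at chr12:110973191-110987665 on (+), *AK050713* by the base 110907826 with 500 bp on either side, and the 73.3 kb between *Rian* and *Mirg*, chr12:110899920-110973190, which holds *AK050713*. Strand-specific paired-end RNA sequencing of mouse embryo fibroblasts (MEFs) was available for both directions of a cross. JXO MEFs had a JF1 mother and a TgOG2 father, and OXJ MEFs had a TgOG2 mother and a JF1 father. JF1 is an inbred strain of *Mus musculus molossinus*, and TgOG2 (OG2) mice carry the GOF18ΔPE-EGFP transgene, in which a *Pou5f1* promoter drives EGFP, so embryos of either cross inherited the transgene. Each library came from 1 line of female MEFs, derived from a 13.5 dpc embryo without head and internal organs and used at an early passage. The cells were untreated, and cross and line cannot be told apart.

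The *Dlk1-Dio3* domain expresses protein-coding genes from the paternal chromosome and a series of non-coding RNAs, among them *Meg3*, *Rian* and *Mirg*, from the maternal one. *Rian* hosts snoRNAs of the C/D box class, members of which can guide the methylation of other RNAs, and *Mirg* and the RNA before it host microRNAs. A microRNA is cut from a folded hairpin of its long nuclear precursor by Drosha, and the hairpin is cut again by Dicer in the cytoplasm to give a mature strand, whose seed near the 5′ end pairs with target messages. The libraries hold fragments of ribosome-depleted total RNA, so they show the long precursor and not the mature microRNAs.

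The following sequences are those of 8 of the 39 hairpins on the (+) strand. The first set had the lowest depth relative to neighbouring RNA and the second set was at or above it. All are RefSeq sequences (GRCm38.p6), 5′ to 3′ on (+), placed on mm9 by an exact match, with the annotated mature strands in capitals.
Mir379, chr12:110947270-110947335: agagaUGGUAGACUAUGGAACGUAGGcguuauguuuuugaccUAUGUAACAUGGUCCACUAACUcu
Mir411, chr12:110948385-110948466: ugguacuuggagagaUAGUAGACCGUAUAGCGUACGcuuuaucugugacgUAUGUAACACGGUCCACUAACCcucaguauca
Mir376b, chr12:110961668-110961749: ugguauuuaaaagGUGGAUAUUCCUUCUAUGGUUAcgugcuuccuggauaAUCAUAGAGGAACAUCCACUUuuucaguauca
Mir376a, chr12:110961991-110962058: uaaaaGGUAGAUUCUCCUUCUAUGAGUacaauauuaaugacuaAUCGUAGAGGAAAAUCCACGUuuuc
Mir154, chr12:110976643-110976708: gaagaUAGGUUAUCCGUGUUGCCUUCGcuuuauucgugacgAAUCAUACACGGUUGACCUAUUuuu
Mir1193, chr12:110953881-110954001: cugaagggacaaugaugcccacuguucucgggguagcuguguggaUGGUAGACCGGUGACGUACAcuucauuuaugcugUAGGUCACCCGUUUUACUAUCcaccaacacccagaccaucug
Mir412, chr12:110981499-110981578: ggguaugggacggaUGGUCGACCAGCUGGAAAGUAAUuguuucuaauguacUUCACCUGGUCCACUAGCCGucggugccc
Mir453, chr12:110973829-110973910: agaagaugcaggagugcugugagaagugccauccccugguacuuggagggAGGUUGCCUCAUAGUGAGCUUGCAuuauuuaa

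Of the 72 mature sequences of the 39 hairpins, which had 66 different seeds, 6 pairs of matures from different hairpins shared a seed. The following 3 of these pairs are shown because they involve the hairpins with the lowest depth, with the seed (bases 2 to 8) in capitals. Mir379 and Mir411 shared a seed and both had low depth, Mir379 and Mir1193 shared one and Mir1193 was above its neighbouring RNA, and Mir376b shared one with Mir376c, which was close to its neighbours.
miR-379-3p: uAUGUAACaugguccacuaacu
miR-411-3p: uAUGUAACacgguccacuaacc
miR-379-5p: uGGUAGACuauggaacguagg
miR-1193-5p: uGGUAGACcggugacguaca
miR-376c-5p: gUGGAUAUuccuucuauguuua
miR-376b-5p: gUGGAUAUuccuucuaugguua

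The annotated start of *Mirg* lies inside the hairpin cluster. The RefSeq window of 250 bases before and 50 from the start, shown because RNA continued through it, contained the whole Mir668 and Mir485 hairpins (capitals), and Mir485 ended 6 bases before the first base of *Mirg*.
Mirg start, chr12:110972941-110973240: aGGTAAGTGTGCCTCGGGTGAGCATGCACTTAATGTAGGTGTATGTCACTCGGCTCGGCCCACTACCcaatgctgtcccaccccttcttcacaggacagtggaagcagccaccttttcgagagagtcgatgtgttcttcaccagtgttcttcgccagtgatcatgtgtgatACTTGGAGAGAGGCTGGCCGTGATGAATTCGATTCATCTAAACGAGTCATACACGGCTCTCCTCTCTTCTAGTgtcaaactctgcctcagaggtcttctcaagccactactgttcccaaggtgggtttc

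Levels are given as mean scaled depth, the number of reads over a base per 50000000 aligned reads, averaged over the bases of a region on (+) unless stated. One read was worth 0.652 in JXO and 0.579 in OXJ, and the tracks held 5837225 reads of 100 bases in JXO and 5785447 in OXJ. Intervals are 95% and cover counting error only, which PCR copies can make too narrow. With 1 library per cross no test between the crosses was made. In bulk MEFs, fewer cells of a type and less RNA per cell cannot be told apart. Of the fibroblast markers, *Col1a2* had exon levels of 583 in JXO and 388 in OXJ, *Lum* 18.9 and 15.5, and *Dcn* 22.9 and 25.9. The neural markers *Nes* and *Sox2* had 339.9 and 155, and 1.27 and 1.22. Of the 3 germ cell markers *Ddx4* had 0.98 and 4.14 while *Dppa3* and *Pou5f1* were at 0. In all, 3 of 11 fibroblast, 2 of 8 neural and 3 of 3 germ cell markers lay inside the deposited stretches. Their summed levels were 625 and 429, 341 and 156, and 0.98 and 4.14, and *Col1a2* made up most of the fibroblast sum. None of the listed muscle, blood, endothelial and epithelial markers lay there. The part of these markers in the values below was not tested.

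*Mirg* was transcribed at nearly the same level in both crosses. Over the 14.5 kb gene, introns included, JXO had 13.6 (12.9 to 14.3) and OXJ 13.3 (12.7 to 14.0), and (+) reads covered 92.7% and 96.5% of its bases. The *AK050713* window, 7.91 kb past the end of *Rian*, had 13.0 (10.6 to 15.8) and 13.8 (11.5 to 16.5). The level over the whole stretch between the genes was lower, at 8.13 (7.90 to 8.37) and 7.41 (7.20 to 7.63). *AK050713* thus stood above the mean of the stretch that holds it in either library. This was not particular to it. The part from the end of *Rian* to the last snoRNA gene, where the window lies, had 12.5 in JXO and 10.6 in OXJ. A 1 kb bin at 3.0 kb past *Rian* was higher than the window, with 32.8 and 24.7. The transcript span of *AK050713* was not used here.

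Nearly all of this RNA was on the (+) strand. For *Mirg*, 97.4% of the depth in JXO (96.5 to 98.2) and 97.3% in OXJ (96.4 to 98.0) was on (+), with 99.0% (94.6 to 100) and 98.4% (94.2 to 99.8) for *AK050713*, and 99.0% (98.6 to 99.3) and 97.9% (97.5 to 98.3) for the stretch. In each of the 87 bins of 1 kb, (+) exceeded (−) in both libraries. GENCODE M1 also annotates 4 microRNA genes on (−) among these hairpins (AC121784.1 to AC121784.4). They had no (−) read in JXO and at most 0.134 in OXJ, where (+) RNA over the same bases was between 0.839 and 6.45.

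The profile of 1 kb bins showed how the level changed from *Rian* to *Mirg*. The last 1 kb of *Rian* had 714 in JXO and 417 in OXJ, and the first 1 kb past its end had 13.8 (11.3 to 16.7) and 6.73 (5.11 to 8.70). The highest bins of the region followed close by, at 3.0 kb past *Rian* (32.8 and 24.7) and at 4.0 kb (29.3 and 21.9), and a bin at 72.0 kb, which holds the hairpins Mir382 and Mir134 just before *Mirg*, was as high (28.1 and 25.1). The lowest bins were at 45 kb (0.130 and 0.685), 35.0 kb (0.391 and 0.720) and 36.0 kb (0.733 and 1.26). The shape of the profile was similar in the libraries, while the height of single bins differed. Pearson's r of the log2 bin levels was 0.933 over 87 neighbouring bins, which share reads, base composition and the alignment.

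**Figure D1:**
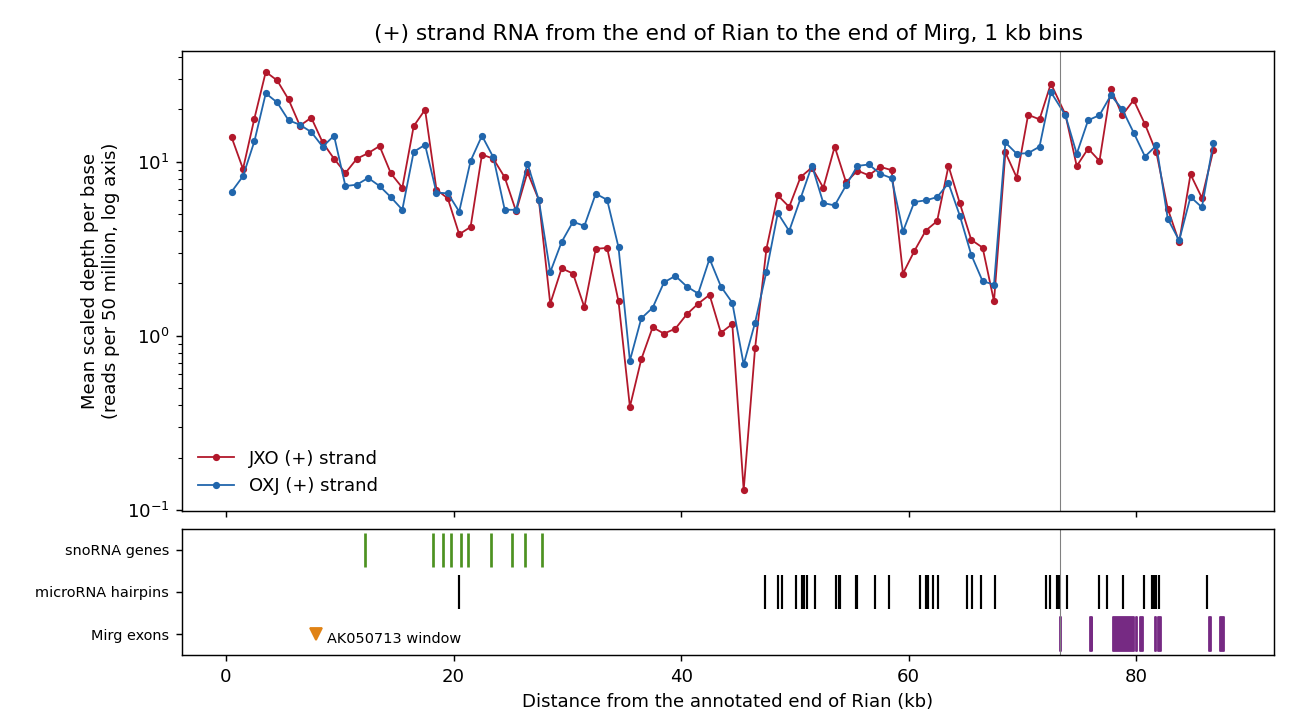
Mean scaled depth on (+) in 1 kb bins (log axis) against the distance from the annotated end of *Rian* in kb, with one line per library, and below it the positions of snoRNA genes, microRNA hairpins, *Mirg* exons and the *AK050713* window. The vertical line is the start of *Mirg*. The lowest bins, down to 0.130 in JXO, lie between the last snoRNA gene and the first hairpin of the cluster.

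Divided by its annotation, a choice made after the values were seen, the stretch had 3 segments. From the end of *Rian* to the last of 10 snoRNA genes (27.8 kb) the level was 12.5 in JXO and 10.6 in OXJ. From there to Mir379 (19.5 kb, chr12:110927755-110947269), an interval with no annotated small RNA, it was 1.48 (1.29 to 1.69) and 2.62 (2.39 to 2.88), with (+) reads over 70.0% and 88.6% of the bases. From Mir379 to the start of *Mirg* (25.9 kb) it was 8.50 and 7.65. The RNA was therefore lowest in the middle segment in both libraries, and the longest run of bases without a (+) read lay there too, 1001 bp in JXO and 331 bp in OXJ.

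RNA continued through the annotated start of *Mirg*, and its depth dropped at the annotated end. The 500 bp before the start had 29.9 (24.7 to 35.9) in JXO and 22.4 (18.2 to 27.3) in OXJ, and the first 500 bp of the gene had 21.7 (17.3 to 26.9) and 22.0 (17.8 to 26.9). The last 500 bp had 33.8 (28.2 to 40.2) and 24.8 (20.3 to 30). Past the end, the next 500 bp had 0.147 in JXO and no read in OXJ (upper limit 0.854), and the 1.5 kb after that had 0.429 and 0.425. Inside *Mirg* the longest run without a (+) read was 191 bp in JXO and 205 bp in OXJ, both 83 kb past *Rian*, in intron 6.

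Depth in *Mirg* was higher in exons than in introns. The exons of its annotated transcripts, 21.9% of the gene's length, held 51.3% of the reads in JXO and 44.2% in OXJ. The exon level was 31.9 and 26.8 and the intron level 8.49 and 9.51, a ratio of 3.75 (3.39 to 4.15) and 2.82 (2.56 to 3.10). The 100 bp inside an exon border, or the whole exon where shorter, were set against the 100 bp outside. The inside was higher at 14 of 14 borders of the 8-exon transcript in JXO and at 13 in OXJ. In short exons both borders shared bases, so the borders are not separate observations.

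Exons and introns varied widely among themselves. Exon 7 was the highest exon in both libraries (57.1, 44.8 to 71.7, in JXO and 63.9, 51.6 to 78.2, in OXJ), and exon 6, which holds Mir410, was the lowest in JXO at 12.9 (7.64 to 20.4) and had 21.1 (14.5 to 29.6) in OXJ. Exon 3, with 20.7 in OXJ (13.1 to 31.2), and exon 5, with 20.6 (10.3 to 36.8), were as low as exon 6 there. Intron 7, the last one, had 1.62 (0.775 to 2.98) and 1.59 (0.794 to 2.84), and the short intron 3 had 1.26 (0.197 to 4.14) and 2.94 (1.11 to 6.31). Intron 2 had the highest intron level, 19.3 and 19.7, and contains most of an alternative transcript whose 1878 bp last exon had 27.4 (24.7 to 30.2) and 22.7 (20.5 to 25.2). That exon holds Mir377, so an intron of one annotated transcript is an exon of the other here.

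**Figure D2:**
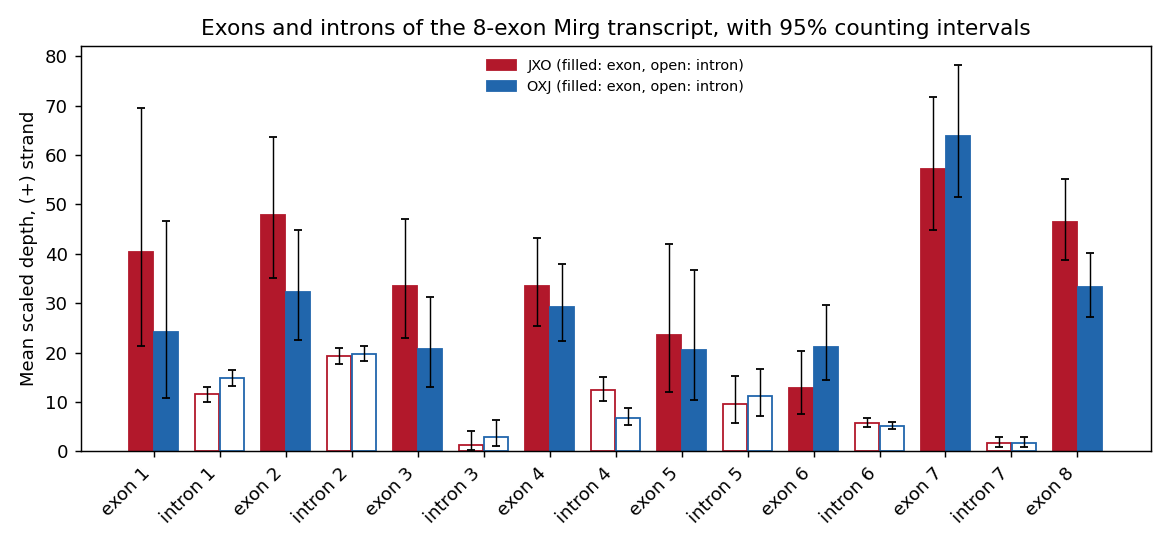
Mean scaled depth on (+) of each exon (filled) and intron (open) of the 8-exon *Mirg* transcript in JXO and OXJ, with 95% counting intervals as error bars. Introns 3 and 7 are the lowest parts, at 2.94 or less, and exon 7 is the highest at 57.1 and 63.9.

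Of the 39 hairpins on (+), 1 (Mir882) lay among the snoRNA genes 20.5 kb past *Rian*, and the other 38 lay in a cluster of 38.9 kb from Mir379 to Mir3072. Before *Mirg* there were 29, and 10 were inside it, 6 in introns and 4 wholly or partly in exons. Each hairpin was set against the RNA of the 200 bp on either side, other hairpins left out. As the background, 1015 windows of 80 bp, tiled outside the hairpins from the end of *Rian* to the end of *Mirg*, were measured likewise. Many of these windows lie before the cluster, among the snoRNA genes and in the interval up to Mir379. Windows of the cluster alone were not measured. Depth was lower over the hairpins than beside them. The median log2 of hairpin over flank was -0.83 in JXO, 0.563 of the flank level, and -1.11 in OXJ, 0.462 of it, against -0.07 and -0.03 for the windows.

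The same was seen when hairpins were counted. In JXO 17 of 39 hairpins (43.6%) were more than 2-fold below their flanks, against 20.4% of 877 windows, and in OXJ 22 (56.4%), against 13.5% of 965 windows. In both libraries together it was 16 hairpins (41.0%), against 7.67% of 873 windows, while 1 was so low in JXO alone, 6 in OXJ alone and 16 in neither. Below both the upstream and the downstream flank were 26 hairpins in JXO (66.7%, windows 32.4%) and 28 in OXJ (71.8%, windows 30.8%). Hairpins of 1 transcript are not replicates, and both libraries were read against the same reference, so these shares describe the 2 libraries. The log2 values of the 37 hairpins with reads in both had Pearson's r of 0.747 between the libraries, which share the sequence and its alignment.

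Counting error matters where few reads lie over a hairpin. With every hairpin or window level under 3 reads per base (1.96 in JXO, 1.74 in OXJ) raised to 3 reads, an alternative added after seeing the data, 14 hairpins (35.9%) in JXO and 20 (51.3%) in OXJ remained more than 2-fold below their flanks, and 14 in both (35.9%). The windows then gave 14.3%, 9.43% and 5.84%. Of these hairpins, 8 of the 14 in JXO and 7 of the 20 in OXJ had under 3 reads per base.

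**Figure D3:**
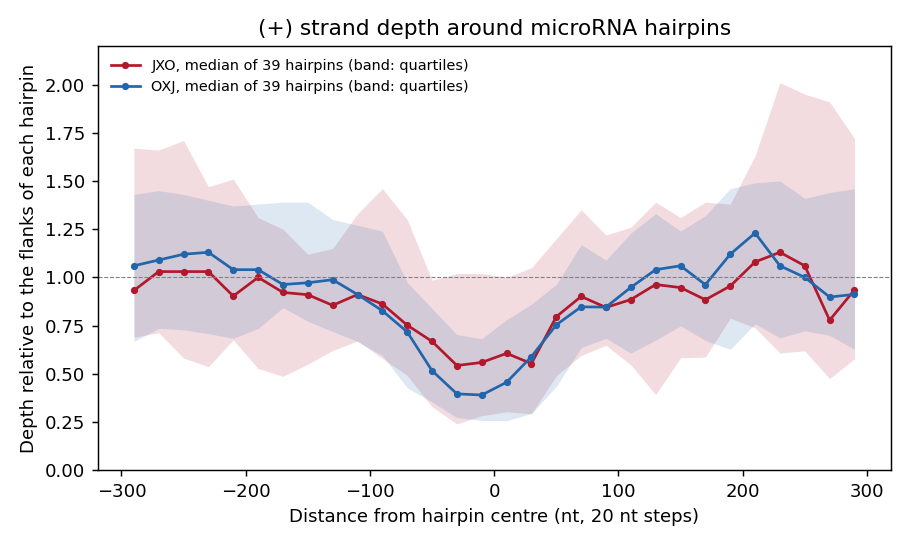
Depth on (+) relative to the flanks of each hairpin, in 20 nt steps against the distance from the hairpin centre in nt, as the median over 39 hairpins in JXO and OXJ with the quartiles as a band. The median falls to 0.543 in JXO at -30 nt and to 0.390 in OXJ at -10 nt and lies between 0.78 and 1.23 beyond 200 nt.

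The 5 hairpins with the lowest level over their flanks, by the mean log2 of both libraries, were Mir379, Mir376b, Mir376a, Mir154 and Mir411. Mir379, the first of the cluster, had no read in JXO against 3.53 in the flanks, which for a floor of 3 reads is at least 1.81-fold lower, and 0.0702 against 1.98 in OXJ. In JXO its upstream flank had 0.808, below that floor, and its downstream flank 6.26. Mir411, the next hairpin, had 0.0477 against 4.24 and 1.2 against 5.12. Both lie at the edge where the level rises again after the interval without small RNAs.

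Mir376b and Mir376a are paralogues that lie next to each other in the cluster. Mir376b had 0.366 against 8.24 in JXO and no read against 5.38 in OXJ, at least 3.1-fold lower at the same floor. That fold rests on its downstream flank, with 13.3 in JXO and 8.12 in OXJ. The upstream flank, with 1.80 and 1.88, was itself near the floor. Mir376a had 0.709 against 11.2 and 0.170 against 8.48. Near-identical paralogues can share reads, which the alignment allowed at up to 10 places in the genome, so the values of Mir376a, Mir376b and Mir376c are less certain. Mir376c had 2.84 against 2.29 and 5.18 against 6.34, close to its flanks.

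Inside *Mirg*, Mir154 had the lowest level over its flanks in both libraries. It lies in intron 2 and had 0.296 against 10.8 in JXO and 1.36 against 14.7 in OXJ. Mir3072, the last hairpin, in intron 6, had 2.16 against 10.4 and 2.9 against 11.6. Its depth was more than 2-fold below the mean of its flanks in both libraries. The downstream flank of Mir3072, with 12.9 and 17.6, reaches into exon 7, the highest exon. Its upstream flank had 7.83 and 5.64, which in OXJ was less than 2-fold above the hairpin. Mir882, the first of all, was also more than 2-fold below the mean of its flanks, with 2.55 against 7.82 and 3.14 against 7.93. The upstream flank of Mir882 had 14.6 in JXO and 14.1 in OXJ, while its downstream flank was lower than the hairpin in both libraries. Mir882 thus lay between the levels on either side and was not below both.

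Other well-known members of the cluster gave values in between. Mir380 had 0.652 against 8.80 in JXO and 0.93 against 4.92 in OXJ. Mir495 had 1.75 against 5.33 and 0.855 against 7.17, and Mir300 had 0.503 against 2.24 and 2.2 against 4.83. These 3 were more than 2-fold below their flanks in both libraries. Mir134, a microRNA studied in neurons, had 16.4 against 26.3 and 12.9 against 25, and was lower than its flanks by less than 2-fold.

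Of the 4 hairpins that overlap *Mirg* exons, none was more than 2-fold below its flanks. Mir377, Mir369 and Mir410 were below them by less than 2-fold in both libraries and Mir412 was above, with median log2 values of -0.22 in JXO and -0.57 in OXJ. Of the 6 hairpins in introns of *Mirg*, 3 in JXO and 4 in OXJ were more than 2-fold below, and of the 29 before *Mirg*, 14 and 18. Of all windows, 20.4% in JXO and 13.5% in OXJ were so low. Mir410 had 7.25 against 9.55 and 10.6 against 15.1. Mir412 and Mir369 overlap only the ends of exon 5 and lie mostly in introns, and the flanks of Mir410 reach past exon 6 into introns. Conversely, flanks of the intronic Mir541, Mir409 and Mir3072 reach into exons 4, 5 and 7, where depth was higher. In OXJ Mir541 had 3.78, against 15.9 in its upstream flank, which takes in part of exon 4, and 6.13 in its downstream flank. Its depth there was more than 2-fold below the mean of its flanks but not below the downstream flank alone. With 4 such hairpins the groups were not tested against each other.

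The 5 hairpins highest over their flanks by the same mean were Mir1193 (log2 1.21 in JXO and 0.52 in OXJ), Mir654 (1.09 and 0.20), Mir412 (0.42 and 0.42), Mir679 (0.48 and 0.24) and Mir666 (0.50 and -0.13). Mir1193 had 13.5 against 5.84 in JXO and 8.61 against 6.0 in OXJ. Its upstream flank had 12 and 7.23 and its downstream flank 1.95 and 5.22, so in JXO the hairpin stood near the level of the RNA before it and well above that after it. By the mean level of both libraries the highest were Mir453 (18 in JXO and 17.9 in OXJ), Mir412 (16.6 and 15.4), Mir134 (16.4 and 12.9), Mir668 (12.5 and 12.5) and Mir679 (14.1 and 9.31). The level of a hairpin and its depth relative to the flanks were thus separate measures: Mir668 was among the highest hairpins and yet below its flanks, which had 38.5 and 29.0.

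**Figure D4:**
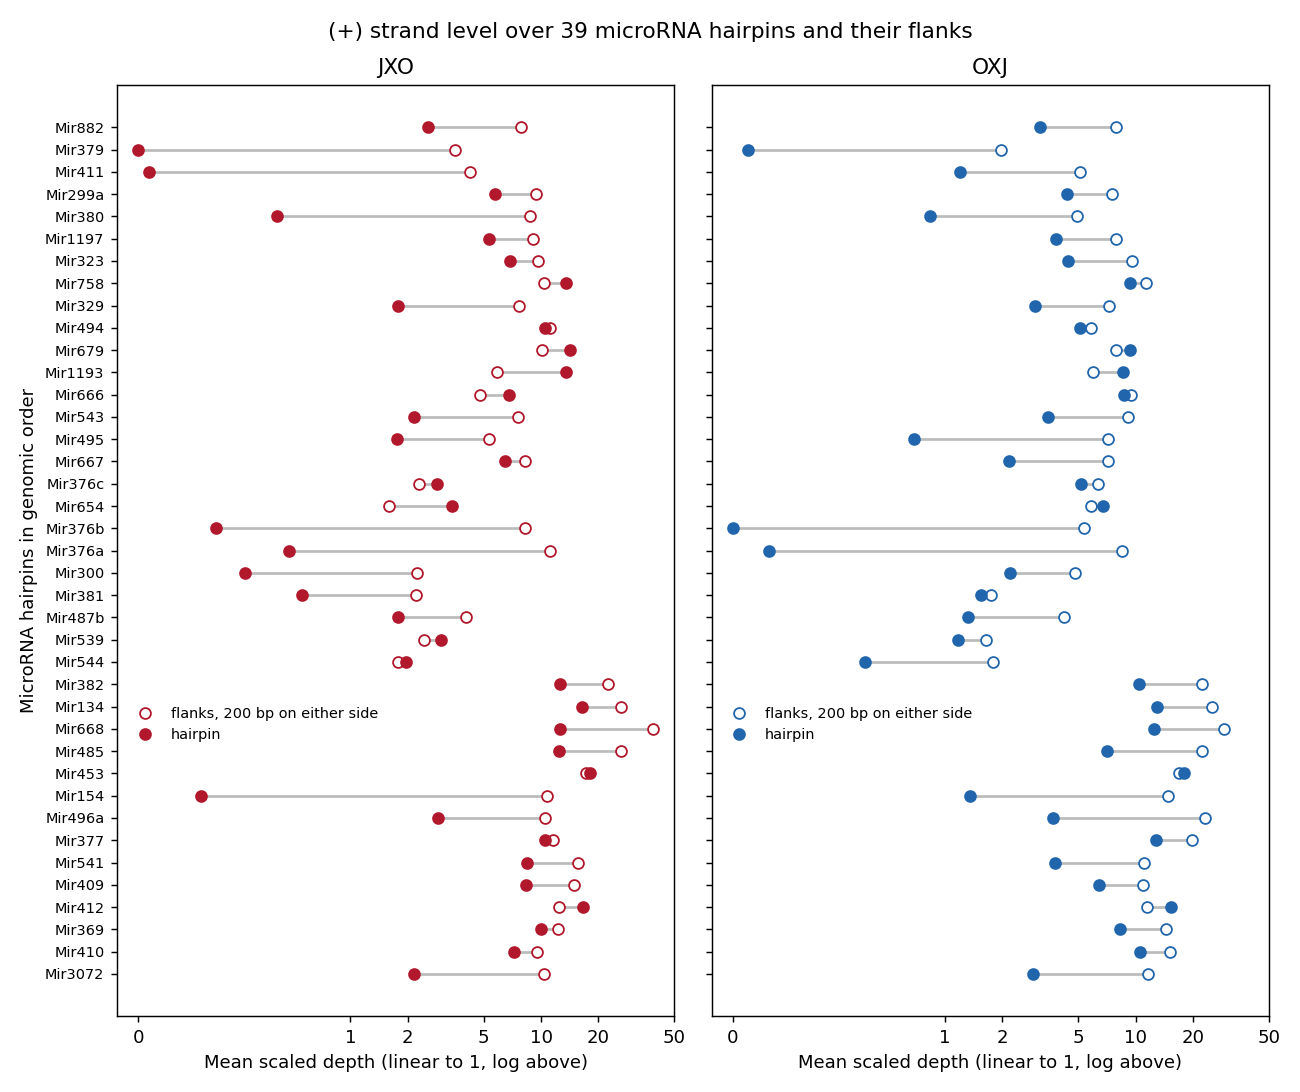
Mean scaled depth on (+) over each of the 39 hairpins (filled) and over its 200 bp flanks (open) in JXO (left) and OXJ (right), in genomic order from top to bottom, on an axis that is linear up to 1 and logarithmic above. Filled points lie left of open ones for 29 hairpins in JXO and 34 in OXJ.

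Base composition and another class of small RNA were measured beside these values. The hairpins had a median GC content of 43.6% and the windows 45%. Among windows at or below the hairpins' median, 22.6% in JXO and 16.2% in OXJ were more than 2-fold below their flanks. Pearson's r of GC content with log2 hairpin over flank was 0.199 in JXO and 0.239 in OXJ over the 38 hairpins with reads, which share one library each. The 10 snoRNA genes of the first segment, processed from introns by other enzymes, had medians of -0.01 over the 9 measured in JXO and -0.10 over 10 in OXJ, with 1 in each library more than 2-fold below its flanks. The part of GC content in the low depth over hairpins was not tested further.

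The 2 crosses were compared after scaling to equal track totals, which lowers log2 JXO over OXJ by 0.18 against the deposited scale. On this scale the median 1 kb bin of all tracks was at 0.28. *Mirg* was at -0.15 (-0.25 to -0.05), *AK050713* at -0.27 (-0.65 to 0.11) and the stretch between the genes at -0.05 (-0.11 to 0.01). These differences were small, and the sign of that for *Mirg* depended on the scale, since it was 0.03 on the deposited one. The segment with the snoRNA genes was at 0.06 (-0.02 to 0.13) and that from Mir379 to *Mirg* at -0.03 (-0.13 to 0.07).

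Of the segments, the interval without annotated small RNAs had the largest difference between the crosses. Its level was 2.02-fold higher in OXJ than in JXO, a log2 of -1.01 (-1.25 to -0.78), and all 19 of its bins were higher in OXJ. Of the 87 bins, 83 had at least 2 reads per base on average. None of these was at least 2-fold higher in JXO, where 7.41% of 10539 such bins of all tracks were, and 11 (13.3%) were at least 2-fold higher in OXJ, where 2.26% of all bins were. The count depended on the settings: 7 bins differed by at least 2-fold on the deposited scale, 25 of 164 with 500 bp bins and 5 of 41 with 2 kb bins. The interval held 8 of the 11, of 15 of its bins with enough reads (53.3%), with a median log2 of -1.06. Among bins of all tracks with 2 to 10 reads per base, a range that includes these 15, 3.24% were at least 2-fold higher in OXJ and 34.3% were higher at all. The interval was chosen after its values were seen, so its share is a description of these 2 libraries.

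Single bins outside the interval differed as well. Among the bins with at least 2 reads per base, the largest ratios toward OXJ were at 31.0 kb (1.46 in JXO and 4.28 in OXJ) and 32.0 kb (3.16 and 6.55) inside it, and at 21.0 kb (4.22 and 10.1) among the snoRNA genes. The lowest bin, at 45 kb, had too few reads for this ranking and a larger ratio, with a log2 of -2.58. Toward JXO they were at 53.0 kb (12.2 and 5.61), which holds Mir494 and Mir679, at the first bin after *Rian* (13.8 and 6.73) and at 13.0 kb (12.3 and 7.25). The last 1 kb of *Rian* itself had a log2 of 0.59 (0.53 to 0.65), so the bin that follows, at 0.85 (0.39 to 1.31), was higher in JXO together with it.

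**Figure D5:**
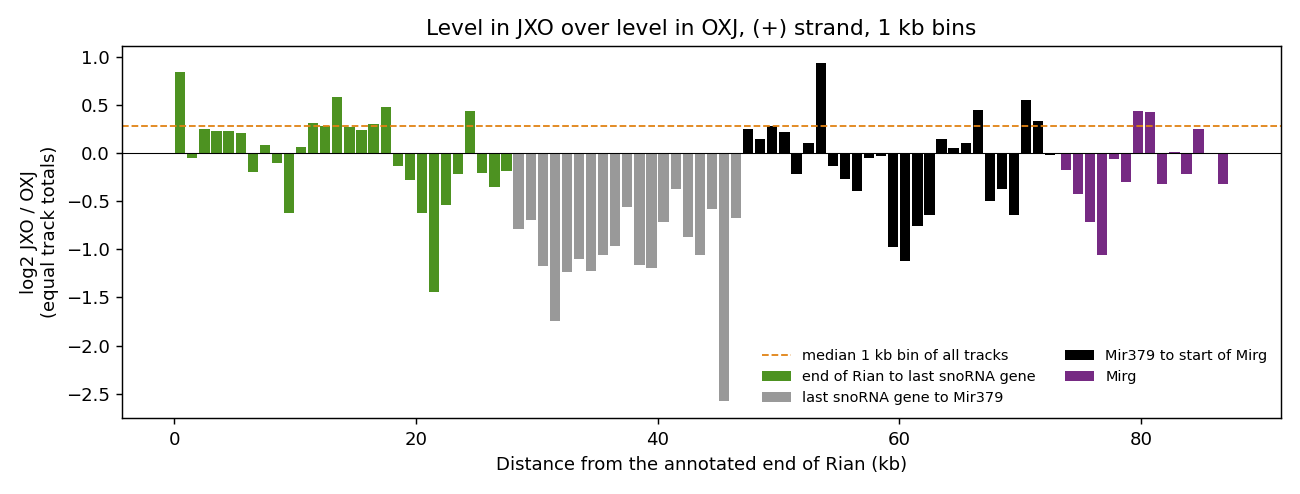
The log2 of the level in JXO over that in OXJ on (+), at equal track totals, for the 87 bins of 1 kb from *Rian* to the end of *Mirg*, coloured by segment. The dashed line is the median bin of all tracks, 0.28, and the bars of the interval from the last snoRNA gene to Mir379 all point down, the longest in a bin with under 2 reads per base.

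*Mirg* was one of the higher long non-coding RNAs of the tracks. By exon level 3 of 75 annotated lincRNA genes inside the deposited stretches were higher in JXO and 3 in OXJ, and 235 and 210 of 939 protein-coding genes were. Within the domain its exon level (31.9 and 26.8) lay between those of *Rian* (233 and 179) and *Meg3* (17.3 and 18.3). Exon levels are means over the annotated exons of all transcripts of a gene. By another measure, average reads per single nucleotide polymorphism, the paper lists *Meg3* above *Mirg*, so this order depends on the measure. The coding genes *Wdr25* (5.08 and 4.04), *Begain* (1.67 and 1.70) and *Dio3* (2.22 and 2.48) were lower, and *Rtl1* had 0.325 and 0.223 on its own strand. Over the same exons the other strand, on which the paper lists the non-coding *Rtl1as*, had 10.9 and 9.25. *Dlk1*, also listed, lay outside the deposited stretches and was not measured. Of 20 listed names of microRNA processing genes, 4 lay inside the deposited stretches and all had reads in both libraries, *Dicer1* (38.6 and 29.9), which cuts the hairpin, and the Argonaute genes *Eif2c2* (50.3 and 44.6), *Eif2c3* (17.5 and 12.1) and *Eif2c1* (10.2 and 8.66), whose products hold the mature strand. Over 831 genes and 2 libraries, *Ccdc134*, *Atf1* and *Adcy6* were nearest to *Mirg* in log2 exon level (Euclidean distances 0.126, 0.128 and 0.134).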

How the data were processed

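RNA of 1 JXO and 1 OXJ MEF line was depleted of ribosomal RNA and sequenced with strand marking by dUTP. Per the submitters' processing notes, CASAVA 1.9 and TopHat 1.2.0 were used, with mm9. The paper's methods state that reads could align to up to 10 loci. The authors deposited 4 tracks, 1 per strand and library, as log2 of 1 plus depth scaled to 50000000 aligned reads. The values were turned back to depth, and each was a whole number of reads to within 3.61e-14. Files named forward held (−) strand RNA: with them so read, 89.8% of 800 protein-coding genes in JXO and 89.3% of 802 in OXJ were higher on their own strand. The tracks hold part of the genome, 618 stretches of 63.7 Mb when joined across gaps of up to 50 kb.

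Levels are means over bases from GENCODE M1. The 39 hairpins were 37 RefSeq hairpins matched exactly to mm9 and Mir666 and Mir544 from GENCODE M1. Flanks under 2 reads per base and bins under 2 reads per base were left out of counts. Intervals of levels and strand shares are exact Poisson or Clopper-Pearson intervals at 95% on read pairs of 200 bases. Those of ratios are normal approximations on the log scale from the same read pairs. The hairpins named are the first, the last, the 5 highest and 5 lowest over flanks, the 5 highest and 3 lowest in level and 9 chosen for their place; the bins named are the 3 highest, 3 lowest and 3 most different in each direction. Other hairpins were named for their location, and exons, after their values were seen. The members, lists and segments were chosen with earlier results of these data known. Python 3.11.15, numpy 2.4.6, scipy 1.17.1 and matplotlib 3.10.9 were used, and the ratios were checked on simulated depth. There each base was drawn on its own around an even depth, with hairpins far apart. Real reads span neighbouring bases and uneven RNA, so the check covers the calculation and not the noise of these data.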

Additional observations from a re-analysis of the deposited data

How the results depend on the processing

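No paired analysis was possible because each cross had 1 library and the labels carry no replicate numbers. Of 83 alternatives, 47 left the value within its interval or its count within 1.5 times, 35 moved it and 1 reversed it. The interval was that of counting error, except for hairpin medians. For these it came from the ordered values of the 39 hairpins, which are not replicates. As means of the log2 values, levels in JXO and OXJ were 7.92 and 8.95 for *Mirg*, 4.64 and 5.16 for the stretch, and 9.04 in JXO for *AK050713*. As medians of 100 bp bins they were 9.60 and 9.44 for *Mirg* and 5.18 and 5.89 for the stretch. In exons only, *Mirg* had 31.9 and 26.8, and within 100 bp of its base *AK050713* had 16.5 in JXO. Counted over covered bases, the share on (+) was 78.7% and 74.1% for *Mirg*, 86.8% and 86.8% for *AK050713* and 90.4% and 84.0% for the stretch. With bases under 2 reads set to 0 it was 98.1% in OXJ for *Mirg* and 99.5% and 98.9% for the stretch. The log2 of JXO over OXJ of *Mirg* was 0.03 as deposited, the reversed value, -0.46 with the median 10 kb bin set equal and -0.36 by log2 means. For the stretch it was 0.13, -0.36 and -0.34, and for the interval without small RNAs -1.32 with the 10 kb scaling, so the interval kept its direction under every scaling tried. The exon over intron ratio of *Mirg* at exon borders was 4.49 and 3.47, and 3.13 in OXJ by log2 means. Bins past 2-fold numbered 25 at 500 bp, 5 at 2 kb and 7 as deposited, against 11. By the lowest base of each hairpin, 26 hairpins in JXO were more than 2-fold below their flanks, and the OXJ median was -1.56. A lowest base set against a mean of flanks is lower by construction. The windows were not measured this way, so these 2 values have no background. The spread between MEF lines of a cross is not known from 1 library each.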
